A study of Homo sapiens with 18 samples.

Results

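The genes described here are 36 members of the integrated stress response (ISR) and the unfolded protein response (UPR), taken by name from a list and read in 3 RNA-seq experiments on triple-negative breast cancer (TNBC) cell lines. The list has an ATF4 arm of 16 genes (ATF4 and genes it is known to regulate) and a chaperone arm of 20 genes (sensors, chaperones and degradation factors of the endoplasmic reticulum, ER). They stand among 25673, 25540 and 25557 genes listed in the PBRM1, IRF1 and MUC1 experiments. All 36 were listed in every experiment, and 35, 33 and 33 of them reached at least 1 TPM (a transcript level corrected for length and scaled to the same total in every library) in at least 3 of the 6 libraries of an experiment and were tested. The members are set by gene name, on a list drawn up with earlier results of these libraries known.

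The study's 18 libraries fell into 6 groups, with 3 in each. BT-549, a TNBC line with wild-type BRCA1, was used in the first and second experiments. In the first it stably carried an shRNA against PBRM1 (PBRM1shRNA), beside control libraries whose labels name no hairpin. In the second it stably carried an shRNA against IRF1 (IRF1shRNA), beside a separate set of control libraries labelled with a control shRNA. MDA-MB-436/tet-MUC1shRNA cells, a BRCA1-mutant TNBC line with an inducible MUC1 hairpin, received doxycycline (DOX) at 500 ng/ml or vehicle (0.1% DMSO), so every library of that experiment carried the hairpin. PBRM1 is the chromatin-targeting subunit of the PBAF remodeling complex, IRF1 binds and activates interferon-stimulated genes, and MUC1 encodes a membrane glycoprotein. Each group was cultured in triplicate, so the p-values measure the spread among cultures of 1 line. An effect of DOX and an effect of MUC1 silencing cannot be told apart, since no DOX group without the MUC1 hairpin was used here. The labels name no second hairpin against PBRM1 or IRF1, so loss of the target and another effect of its hairpin cannot be told apart either.

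The ISR starts when kinases phosphorylate the translation factor eIF2, which slows general translation and favours translation of ATF4, a transcription factor for amino acid synthesis, redox and stress genes. The UPR starts when misfolded proteins gather in the ER, and it signals through PERK (an eIF2 kinase, shared with the ISR), IRE1 (encoded by ERN1, which splices XBP1 mRNA) and ATF6, which is cut to release a transcription factor. ATF6 and spliced XBP1 drive chaperone and ER-associated degradation (ERAD) genes. ATF4, XBP1 and ATF6 are controlled largely after transcription, so their mRNA levels are not measures of their activity. In secretory and carcinoma cells both responses are known as adaptations to protein load, nutrient shortage and hypoxia.

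The control regions of these genes hold short sequences through which the arms are classically regulated. RefSeq promoter windows (GRCh38.p14, 250 bases before to 50 after a start site) were matched for 33 of the 36 genes and searched on both strands. The ER stress response element (ERSE: CCAAT, then 9 of any base, then CCACG) was found in 6 members of the chaperone arm and in 0.0769% of 35116 windows of the same length. The core of the UPR element (TGACGTGG, whose last 5 letters are the reverse complement of the CCACG part of the ERSE) was found in HYOU1 alone among the members and in 0.729% of windows. The C/EBP-ATF composite core (TGATGNAA), through which ATF4 acts with a C/EBP partner, was found in 4 genes of the ATF4 arm and in HERPUD1 of the chaperone arm, against 3.62% of windows. A match is a run of letters and not a measured binding site, and NUPR1, PDIA3 and PSPH had no window in the table. The stretches with matches follow for every member that held a match except ASNS and CALR. They are read 5′ to 3′ along the strand of the gene, with the motif in capitals (a motif on the opposite strand appears as its reverse complement).
HSPA5 (chr9:125241379-125241421, minus strand, ERSE starting 66 bases before the start site): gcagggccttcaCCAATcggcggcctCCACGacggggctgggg
HSP90B1 (chr12:103930204-103930246, plus strand, ERSE at 194 bases): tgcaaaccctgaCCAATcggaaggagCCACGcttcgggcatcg
HSP90B1 (chr12:103930309-103930351, plus strand, opposite ERSE at 89 bases): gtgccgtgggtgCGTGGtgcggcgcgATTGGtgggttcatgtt
XBP1 (chr22:28800591-28800633, minus strand, ERSE at 52 bases): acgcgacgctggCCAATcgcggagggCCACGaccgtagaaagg
PDIA6 (chr2:10812841-10812883, minus strand, ERSE at 86 bases): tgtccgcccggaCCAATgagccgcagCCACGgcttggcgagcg
CRELD2 (chr22:49918542-49918584, plus strand, opposite ERSE at 80 bases): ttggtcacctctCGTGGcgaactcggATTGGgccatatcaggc
HYOU1 (chr11:119057374-119057405, minus strand, UPR element core at 188 bases): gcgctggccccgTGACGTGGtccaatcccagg
HERPUD1 (chr16:56931954-56931985, plus strand, opposite C/EBP-ATF core at 176 bases): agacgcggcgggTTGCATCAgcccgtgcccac
CHAC1 (chr15:40953250-40953281, plus strand, opposite C/EBP-ATF core at 209 bases): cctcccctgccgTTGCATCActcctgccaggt
ATF3 (chr1:212565204-212565235, plus strand, C/EBP-ATF core at 191 bases): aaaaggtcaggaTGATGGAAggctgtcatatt
FGF21 (chr19:48755458-48755489, plus strand, opposite C/EBP-ATF core at 54 bases): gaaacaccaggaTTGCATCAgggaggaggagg

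**Figure D1:**
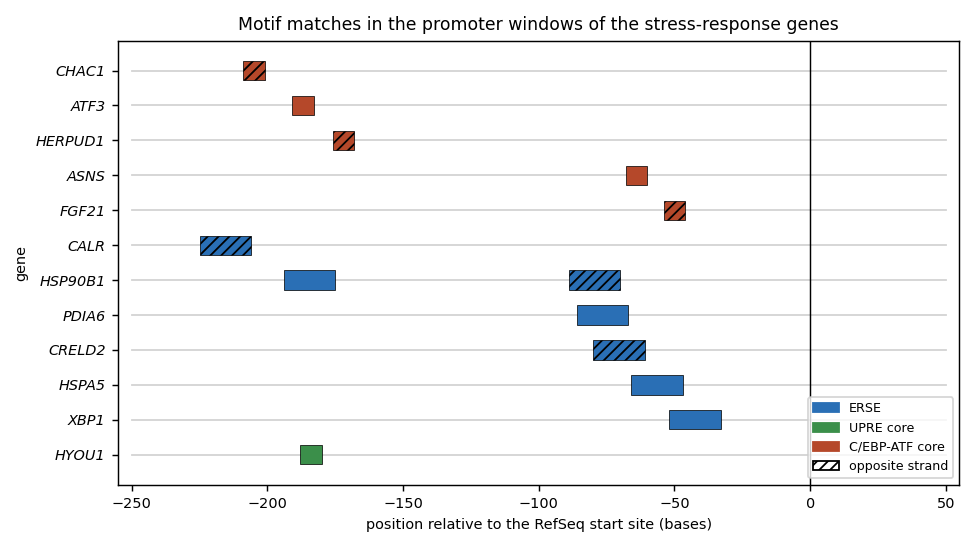
Positions of motif matches in the promoter windows of the 12 member genes that held any, on an axis of bases from the RefSeq start site (0); each box is a match drawn to length, blue for the ERSE, green for the UPR element core, red for the C/EBP-ATF core, hatched where the match is on the opposite strand. The ERSE boxes belong to chaperone-arm genes, and HERPUD1 is the chaperone-arm gene with a C/EBP-ATF core.

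The silenced genes were read first. PBRM1 averaged 2.96 ± 0.27 TPM in PBRM1shRNA cells and 11.9 ± 1.0 TPM in their controls (SD, n = 3 each, as throughout). IRF1 averaged 1.17 ± 0.14 TPM in IRF1shRNA cells and 4.75 ± 0.41 TPM in controls, and MUC1 averaged 3.03 ± 0.54 TPM with DOX and 5.63 ± 0.70 TPM with vehicle. Each fell (difference in log2(TPM + 1) of -1.70, -1.404 and -0.72, all past the test by limma). Small nucleolar and other short noncoding RNAs took between 75.7% and 79.2% of all TPM in the libraries of the PBRM1 comparison. They took between 84.8% and 88.5% in those of the IRF1 comparison, and between 12.02% and 15.1% in MDA-MB-436 cells. Since each library sums to one fixed total, a larger share of them leaves less for all other genes. Results were therefore also computed with these RNAs removed and each library rescaled. Of 6 leukocyte markers, CD3E and MS4A1 were listed at 0 in every library, PTPRC did not exceed 0.201 TPM, and only CD68 (all experiments) and CD14 (MUC1 experiment) passed the filter. Leukocyte markers summed to between 12.5 and 13.8 TPM in PBRM1shRNA cells and 31.0 to 35.4 TPM in controls, to 5.93 to 6.86 TPM in IRF1shRNA cells and 8.16 to 9.31 TPM in controls, and to 104 to 115 TPM with DOX and 108 to 116 TPM with vehicle, mostly CD68. Of 4 epithelial markers (EPCAM, CDH1, KRT8 and KRT18) 2 passed in the PBRM1, 1 in the IRF1 and 4 in the MUC1 experiment. Their sums did not overlap between the groups in any experiment, at 34.0 to 39.9 TPM in PBRM1shRNA cells and 3.90 to 4.57 TPM in controls, 0.827 to 1.01 TPM in IRF1shRNA cells and 1.73 to 2.37 TPM in controls, and 1648 to 1724 TPM with DOX and 836 to 866 TPM with vehicle. KRT18 alone had 27.7 to 33.1 TPM in PBRM1shRNA cells and 2.59 to 3.05 TPM in controls, and EPCAM had 19.95 to 22.5 TPM with DOX and 3.70 to 5.90 TPM with vehicle. In the PBRM1 experiment CDH1 went the other way, at 0.158 to 0.251 TPM in PBRM1shRNA cells and 0.570 to 0.772 TPM in controls. EPCAM there did not exceed 0.065 TPM, and KRT8 reached 1 TPM in the PBRM1shRNA libraries alone. Of 2 mesenchymal markers, VIM was higher in PBRM1shRNA cells (394 to 436 against 324 to 370 TPM) and FN1 was lower (12.3 to 15.0 against 33.1 to 39.2 TPM). VIM was lower in IRF1shRNA cells (193 to 233 against 276 to 366 TPM), where FN1 overlapped (14.7 to 19.3 against 18.8 to 26.1 TPM). With DOX VIM was lower (990 to 1067 against 1755 to 1862 TPM) and FN1 was higher (317 to 325 against 238 to 246 TPM). The part of these markers in the results on the arms was not tested. ERBB2 was the only 1 of 3 hormone and HER2 receptor genes that passed. In bulk RNA, fewer cells with a transcript and less of it per cell cannot be told apart.

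In cells without silencing, chaperone transcripts were the most abundant members. CALR (calreticulin, a lectin chaperone) averaged 1231, 286 and 1443 TPM in the PBRM1 control, IRF1 control and vehicle libraries, and HSPA5 (BiP, the main ER Hsp70 chaperone) averaged 645, 96.1 and 370 TPM. ATF4 averaged 137, 56.3 and 99.1 TPM. DDIT3 (CHOP, a pro-apoptotic factor downstream of ATF4) averaged 69.1, 13.6 and 14.1 TPM. The tables were normalized separately and the share of short RNAs differs between them, so levels between experiments are given side by side with no test. At the low end were ASNS (0.844, 0.159 and 0.666 TPM), FGF21 (2.26, 0.0109 and 0 TPM) and, in MDA-MB-436 cells, NUPR1 (0.58 TPM).

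ASNS (asparagine synthetase) is a classical ATF4 target, yet it was under the filter in all 3 experiments. ASNS had 0.784, 0.763 and 0.697 TPM in PBRM1shRNA cells, against 0.891, 0.833 and 0.809 TPM in controls, and it had 1.05, 0.93 and 1.304 TPM with DOX, against 0.669, 0.474 and 0.855 TPM with vehicle. In both of these experiments the groups did not overlap. Its pseudogene ASNSP1 was listed at 4.997 ± 0.674 TPM in PBRM1shRNA cells and 10.3 ± 1.1 TPM in controls, and at 0 in all libraries of the MUC1 experiment. A readthrough gene, CZ1P-ASNS, overlaps ASNS and was listed at 0.037 ± 0.012 TPM in PBRM1shRNA cells and 0.085 ± 0.041 TPM in controls. It too was at 0 in all libraries of the MUC1 experiment. Reads shared with these copies may make the ASNS values uncertain, and their part was not tested.

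All 5 transcription factors and 3 of 4 feedback regulators of the ATF4 arm were lower after PBRM1 silencing, as were 10 genes of the chaperone arm. In PBRM1shRNA cells 10 of the 15 tested ATF4-arm genes fell, 2 rose and 3 did not pass the test (limma, adjusted p under 0.05 over 10639 genes), with a median difference of -0.68 in log2(TPM + 1). In the chaperone arm 10 of 20 fell, 3 rose and 7 did not pass, with a median of -0.18. Over all genes tested 34.8% fell and 24.6% rose, with a median of -0.047. FGF21 and ERN1 reached the filter in the control libraries alone, and without them 9 of 14 ATF4-arm genes fell (median -0.56) and 9 of 19 chaperone-arm genes fell (median -0.082). The groups did not overlap for 24 of the 35 tested members, against 62.0% of all genes. With the short RNAs removed the counts were 12 lower and 2 higher in the ATF4 arm (16 tested), and 12 lower and 3 higher in the chaperone arm, when 50.4% of all genes fell and 22.5% rose, so the chaperone arm was near the share of all genes. With median-ratio scaling the chaperone arm had 8 genes higher and the ATF4 arm 4, when 43.3% of all genes rose and 33.0% fell. Calls in the higher direction were 41.4% of all calls as deposited, 30.9% with short RNAs removed and 56.7% with median-ratio scaling.

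**Figure D2:**
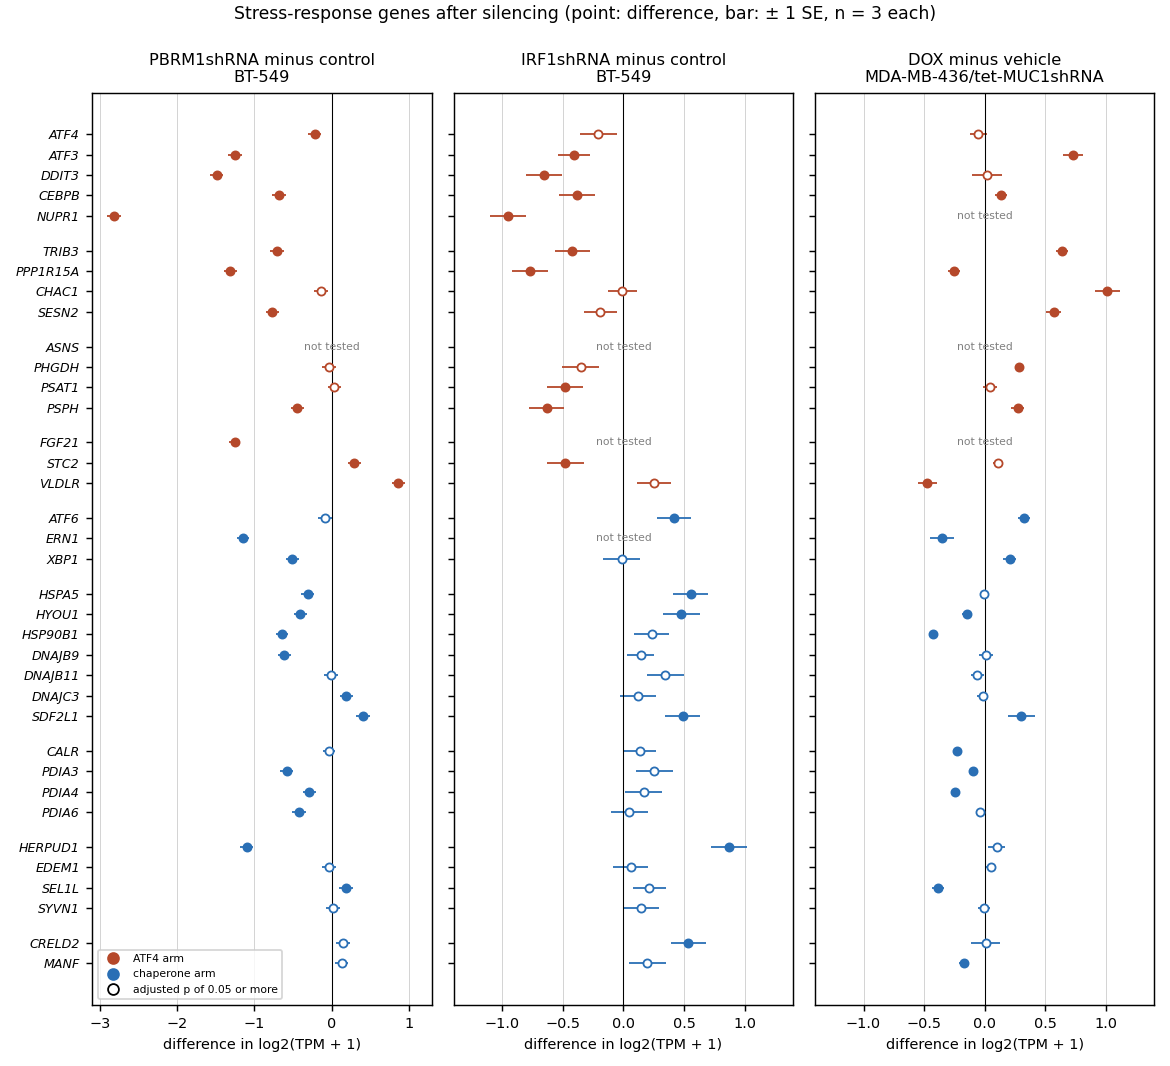
Difference in log2(TPM + 1) for each member in PBRM1shRNA minus control (left), IRF1shRNA minus control (middle) and DOX minus vehicle (right), points with bars of ± 1 SE from limma, n = 3 libraries in each group, red for the ATF4 arm, blue for the chaperone arm, filled where the adjusted p was under 0.05; the left panel has a wider axis. NUPR1 reaches -2.82 at left, blue points lie mostly right of 0 in the middle panel, and CHAC1 reaches 1.01 at right.

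All 5 transcription factors of the ATF4 arm fell after PBRM1 silencing. NUPR1 (a small stress-induced nuclear protein) had 13.0, 15.0 and 14.5 TPM in PBRM1shRNA cells, against 99.8, 106 and 113 TPM in controls. Its difference of -2.82 ± 0.09 (SE) was the largest of any member (limma adjusted p = 3.47e-226). DDIT3 had 25.5, 20.8 and 25.8 TPM in PBRM1shRNA cells, against 69.2, 63.7 and 74.6 TPM in controls, a difference of -1.49 ± 0.09 (adjusted p = 3.34e-64). Every silenced library lay below every control library for both genes. ATF3 (a stress-induced repressor and activator that partners with CHOP) had 5.30, 4.65 and 5.04 TPM, against 13.7, 12.3 and 13.8 TPM in controls, a difference of -1.25 ± 0.09 (adjusted p = 3.53e-44). CEBPB (a C/EBP partner of ATF4) differed by -0.68 ± 0.09. ATF4 mRNA itself differed less, at 118, 116 and 119 TPM in PBRM1shRNA cells and 140, 130 and 142 TPM in controls, and its groups did not overlap. Its difference of -0.22 ± 0.09 passed narrowly (adjusted p = 0.0211) and lost the call when any single library but control 2 was left out. ATF4 was also called lower with short RNAs removed (-0.30, adjusted p = 8.14e-06). The call held with median-ratio scaling (-0.10, adjusted p = 0.0388) and with quantile scaling (-0.37, adjusted p = 7.76e-06).

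Of the 4 feedback and stress regulators 3 fell. PPP1R15A (GADD34, which directs a phosphatase to eIF2 and ends the response) had 13.1, 13.2 and 12.4 TPM in PBRM1shRNA cells, against 33.5, 31.4 and 35.8 TPM in controls. Its groups did not overlap and differed by -1.31 ± 0.09 (adjusted p = 4.72e-49). SESN2 (sestrin 2, a restraint on mTORC1) fell by 0.77 and TRIB3 (a pseudokinase that binds ATF4 and damps it) fell by 0.71 on the log2 scale. CHAC1 (an enzyme that degrades glutathione) had 7.82, 7.57 and 8.02 TPM in PBRM1shRNA cells, against 9.13, 8.26 and 8.60 TPM in controls. That difference of -0.13 missed the test (adjusted p = 0.181), although the groups did not overlap, and passed when same-numbered libraries were treated as pairs (adjusted p = 0.0114). CHAC1 was also called with short RNAs removed (-0.22, adjusted p = 0.000944). It was not called with median-ratio scaling (-0.031, adjusted p = 0.513) or quantile scaling (-0.043, adjusted p = 0.381).

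The serine synthesis enzymes and the secreted and surface proteins of the arm did not move as a block. PHGDH and PSAT1, the first enzymes of serine synthesis, differed by -0.031 and 0.035 and did not pass, while PSPH, which completes the pathway, fell by 0.44. The direction of both depended on the scaling: PHGDH was called at -0.11 with short RNAs removed (adjusted p = 0.0165) and at 0.083 with median-ratio scaling (adjusted p = 0.0428), and PSAT1 at 0.15 with median-ratio scaling (adjusted p = 0.00203) and at -0.17 with quantile scaling (adjusted p = 0.000707). FGF21 (a stress-induced hormone) was low, at 0.399, 0.337 and 0.348 TPM in PBRM1shRNA cells, against 2.27, 2.02 and 2.48 TPM in controls. It passed the filter only through the control libraries, and its difference of -1.26 ± 0.07 understates a change from such levels because 1 TPM is added before the log. The remaining members of the arm went the other way. VLDLR (the very low density lipoprotein receptor) had 17.0, 14.3 and 16.1 TPM in PBRM1shRNA cells, against 8.17, 7.58 and 8.87 TPM in controls, a difference of 0.87 ± 0.09 (adjusted p = 9.31e-22), and STC2 (the secreted stanniocalcin 2) rose by 0.30. No silenced library of VLDLR fell within the control range.

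In the chaperone arm the largest difference of a gene that reached 1 TPM in both groups was in HERPUD1. ERN1 (IRE1, listed with a numeric suffix on its symbol in this table) had 0.984, 0.854 and 0.903 TPM in PBRM1shRNA cells, against 3.38, 2.89 and 3.46 TPM in controls, a difference of -1.15 ± 0.08. As with FGF21, it reached 1 TPM in the control libraries alone and so had to differ to be tested, and it is given with no p-value. HERPUD1 (a membrane organizer of ERAD, which also carries the C/EBP-ATF core printed above) had 21.0, 19.6 and 20.5 TPM, against 46.2, 41.7 and 46.7 TPM in controls, a difference of -1.10 ± 0.09 (adjusted p = 3.91e-35). XBP1 (the IRE1 target) had 63.7, 58.1 and 61.9 TPM, against 93.7, 78.8 and 91.0 TPM in controls, and fell by 0.51. ATF6 differed by -0.082 and did not pass (adjusted p = 0.430). It was called with short RNAs removed (-0.16, adjusted p = 0.00260), and its sign turned to 0.026 with median-ratio scaling.

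Among the chaperones, 4 of 7 fell, 2 rose and 1 did not pass. HSP90B1 (GRP94, the ER Hsp90, with 2 ERSE matches) had 406, 387 and 423 TPM in PBRM1shRNA cells, against 639, 581 and 681 TPM in controls. The difference was -0.64 ± 0.08 (adjusted p = 1.52e-13), and the groups did not overlap. DNAJB9 (ERdj4, an Hsp40 co-chaperone) fell by 0.61, HYOU1 (GRP170, a nucleotide exchange factor for BiP) by 0.40 and HSPA5 by 0.31. SDF2L1 (an ER co-chaperone) had 11.6, 10.3 and 10.3 TPM in PBRM1shRNA cells, against 8.47, 7.28 and 7.73 TPM in controls, and rose by 0.41. DNAJB11 (ERdj3, a BiP co-chaperone) differed by -0.0082 and did not pass. DNAJC3 (p58IPK) differed by 0.19 with an adjusted p of 0.0494, and SEL1L (an ERAD adaptor) by 0.19 with an adjusted p of 0.04999. Both calls were lost when PBRM1shRNA 1, PBRM1shRNA 3, control 1 or control 2 was left out, which left 1 chaperone-arm gene in the higher direction. Of all genes 19.2%, 19.0%, 23.0% and 22.5% rose in those fits, against 24.6% with every library.

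PDIA3, PDIA6 and PDIA4 (disulfide isomerases) fell by 0.58, 0.42 and 0.29, while CALR differed by -0.033 and did not pass. PDIA3 has a processed copy, PDIA3P1, read at 5.75 ± 0.55 TPM in PBRM1shRNA cells and 8.98 ± 1.26 TPM in controls, against 97.3 and 146 TPM for PDIA3 itself, so reads may be split between them. EDEM1 and SYVN1 (ERAD factors) and CRELD2 and MANF (secreted ER stress proteins) did not pass. With same-numbered libraries as pairs, CRELD2 (0.15, adjusted p = 0.00377) and MANF (0.13, adjusted p = 0.00581) did, which made 5 chaperone-arm genes higher, where 32.5% of all genes rose and 43.0% fell. Both calls were lost when the short RNAs were removed as well (adjusted p = 0.0963 for CRELD2 and 0.142 for MANF), which left 3 genes of the arm higher and 14 lower. Of all genes 51.7% fell and 23.6% rose in that fit. The signs of EDEM1, CALR and DNAJB11 turned with median-ratio scaling, to 0.074, 0.082 and 0.11.

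Further ATF4 targets fell more often than they rose, and genes for protein import into the ER rose more often than they fell. Of 35 tested genes on a list of further ATF4 targets and partners, 23 fell and 2 rose after PBRM1 silencing, with a median of -0.29 against -0.047 for all genes. Over all genes tested 34.8% fell and 24.6% rose, the shares against which each list here is to be read. The largest differences were in WARS (tryptophanyl-tRNA synthetase, -1.47 ± 0.09, also an interferon-inducible gene), VEGFA (-1.25 ± 0.09) and PCK2 (mitochondrial PEPCK, -1.05 ± 0.09). Among 13 genes for eIF2, its kinases and its exchange factor, with PPP1R15B (the eIF2 genes), 3 fell and 1 rose. EIF2AK2 (PKR, the double-stranded RNA-activated and interferon-inducible eIF2 kinase) at -1.85 ± 0.09 and EIF2B1 at -0.27 were the largest in the lower direction. EIF2AK4 (GCN2, the amino acid sensor) differed by 0.33. By contrast, 10 of 20 tested translocon and signal peptidase genes rose and 4 fell (median 0.19, led by SPCS3 at 1.15, SSR2 at 0.66 and SSR3 at 0.46), and 12 of 27 other ER folding and ERAD genes rose and 7 fell (median 0.16, FKBP14 1.05, OS9 -0.94, PDIA5 -0.88). Of 10 tested UPR sensors, proteases and related factors, 2 fell and 3 rose, with MAP3K5 at -1.12, MBTPS1 (the site-1 protease that cuts ATF6) at 0.42 and NFE2L1 at -0.38. The lists were counted on TPM as deposited alone. The share of all genes that rose was 22.5% with short RNAs removed and 43.3% with median-ratio scaling, so the counts in the higher direction may depend on the scaling.

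**Figure D3:**
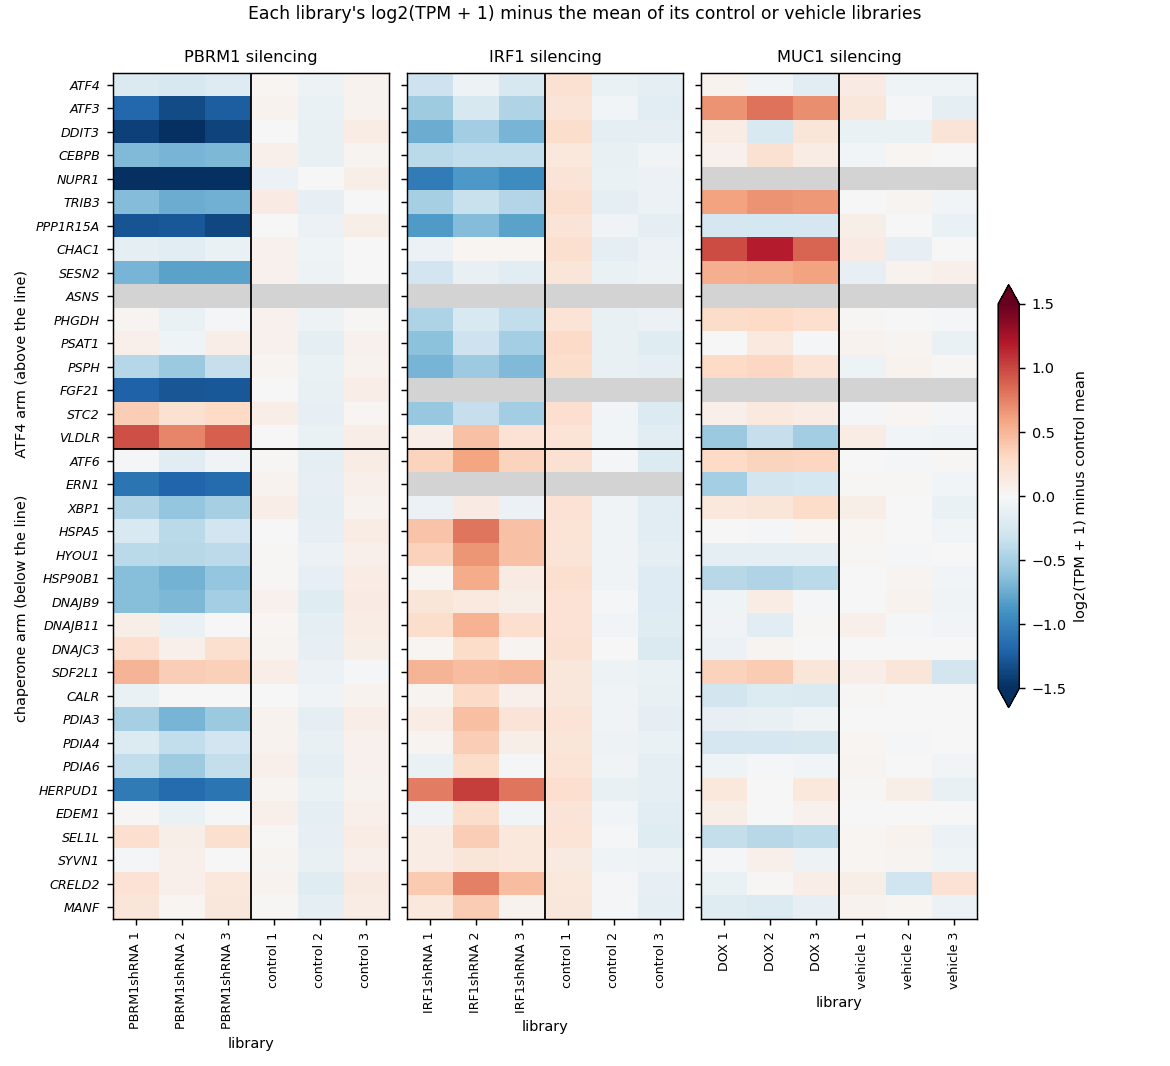
Each library's log2(TPM + 1) minus the mean of its control or vehicle libraries, 1 row per member (ATF4 arm above the horizontal line, chaperone arm below), 1 column per library with the silenced or DOX libraries left of the vertical line; blue is lower, red is higher, values past 1.5 in size are drawn at the end of the scale and grey rows were not tested. The IRF1shRNA 2 and IRF1 control 1 columns are redder than their replicates from top to bottom.

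The arms moved in opposite directions after IRF1 silencing. In IRF1shRNA cells 9 of the 14 tested ATF4-arm genes fell and 0 rose, while 6 of the 19 tested chaperone-arm genes rose and 0 fell (limma, 9135 genes). The median difference was -0.42 in the ATF4 arm, 0.21 in the chaperone arm and -0.064 over all genes, of which 18.5% fell and 5.76% rose. At an unadjusted p under 0.05 there were still 0 higher in the ATF4 arm and 0 lower in the chaperone arm. The groups did not overlap for 18 of 33 tested members, against 33.9% of all genes.

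The libraries of this experiment were spread by their short RNA content, which was 88.5%, 86.3% and 88.4% in IRF1shRNA libraries 1 to 3 and 84.8%, 87.3% and 87.9% in control libraries 1 to 3. IRF1shRNA 2 and control 1 had the lowest shares. Relative to the control mean, the chaperone arm averaged 0.45 in IRF1shRNA 2 against 0.19 and 0.21 in its replicates, and 0.20 in control 1 against -0.049 and -0.15 in its replicates. With the short RNAs removed, 19 of 20 chaperone-arm genes rose and 0 fell (all but ERN1), and 10 of 15 ATF4-arm genes fell and 1, VLDLR, rose (0.42). Of all genes 35.4% rose and 29.4% fell under that scaling. Calls in the higher direction were then 54.6% of calls, against 23.7% as deposited, 47.8% with median-ratio and 56.6% with quantile scaling. As deposited, the 9 ATF4-arm calls dropped to 4 without IRF1shRNA 1 or IRF1shRNA 3 and to 5 without control 2. The share of all genes that fell was 10.4%, 10.3% and 12.8% in those fits, against 18.5% with every library. The 6 chaperone-arm calls became 3 without IRF1shRNA 3 or control 2 and 11 without control 1. The share of all genes that rose was 2.96%, 2.08% and 16.4% in those fits, against 5.76% with every library.

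NUPR1 again had the largest difference of the ATF4 arm. It had 8.59, 9.97 and 9.32 TPM in IRF1shRNA cells, against 21.7, 17.5 and 17.7 TPM in controls, a difference of -0.95 ± 0.15 (adjusted p = 6.77e-09). PPP1R15A had 5.16, 6.05 and 5.34 TPM, against 11.7, 9.71 and 9.02 TPM in controls, a difference of -0.77 ± 0.15 (adjusted p = 2.69e-06). DDIT3 had 7.61, 9.10 and 7.89 TPM, against 16.4, 12.2 and 12.2 TPM in controls, a difference of -0.66 ± 0.15 (adjusted p = 0.000124). All IRF1shRNA libraries lay below all controls for these 3 genes. Removal of the short RNAs gave differences of -0.90, -0.74 and -0.59 with an SE of 0.05 or less.

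Enzymes of serine synthesis were among the genes that fell. PSPH had 5.80, 6.58 and 5.97 TPM in IRF1shRNA cells, against 12.2, 9.18 and 8.95 TPM in controls, a difference of -0.63 ± 0.15 (adjusted p = 0.000185). PSAT1 had 29.8, 36.9 and 32.1 TPM, against 56.8, 42.7 and 40.6 TPM in controls, a difference of -0.48 ± 0.15 (adjusted p = 0.00903). PHGDH differed by -0.35 and did not pass as deposited (adjusted p = 0.0750), although its groups did not overlap. STC2, TRIB3, ATF3 and CEBPB fell by 0.48, 0.42, 0.41 and 0.38 on the log2 scale, calls that were each lost in at least 3 of the 6 fits that left out a library.

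ATF4 mRNA overlapped between the groups, with 45.0, 53.2 and 47.2 TPM in IRF1shRNA cells and 65.9, 52.3 and 50.8 TPM in controls (-0.21 ± 0.15, adjusted p = 0.353). CHAC1 (-0.011), SESN2 (-0.19) and VLDLR (0.25) did not pass. FGF21 and ASNS were under the filter, at 0 to 0.0239 TPM and 0.133 to 0.201 TPM over the 6 libraries.

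HERPUD1 rose most in the chaperone arm. It had 16.2, 19.6 and 16.5 TPM in IRF1shRNA cells, against 11.0, 8.29 and 8.13 TPM in controls, a difference of 0.87 ± 0.15 (adjusted p = 1.49e-07), where PBRM1 silencing in the same cell line gave -1.10. Its groups did not overlap in either experiment. HSPA5 had 129, 167 and 130 TPM in IRF1shRNA cells, against 110, 92.0 and 85.8 TPM in controls, a difference of 0.56 ± 0.15 (adjusted p = 0.00112). CRELD2 had 5.90, 7.89 and 6.28 TPM, against 4.87, 4.15 and 3.85 TPM in controls, a difference of 0.54 ± 0.14 (adjusted p = 0.00160). Both genes were higher in every IRF1shRNA library than in any control.

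SDF2L1 (0.49 ± 0.15), HYOU1 (0.48 ± 0.15) and ATF6 (0.42 ± 0.14) completed the calls. Of the 6 fits that left out a library, SDF2L1 lost its call in 3, HYOU1 in 4 and ATF6 in 5. ATF6 had 5.42, 6.66 and 5.40 TPM in IRF1shRNA cells, against 4.96, 4.04 and 3.41 TPM in controls. XBP1 did not differ by the test, at 16.5, 19.3 and 16.5 TPM in IRF1shRNA cells and 20.5, 16.9 and 15.7 TPM in controls (-0.015 ± 0.151, adjusted p = 0.960), and with short RNAs removed its sign turned to 0.10 (adjusted p = 0.0407). The other 12 tested members of the arm had differences between 0.050 and 0.34 and did not pass as deposited. HSP90B1, at 115, 166 and 123 TPM in IRF1shRNA cells and 134, 108 and 98.4 TPM in controls, overlapped between the groups as deposited and differed by 0.36 ± 0.06 with short RNAs removed (adjusted p = 0.000335). ERN1 was under the filter at 0.466 to 0.676 TPM.

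On the list of further ATF4 targets and partners, 11 of 31 tested genes fell and 1 rose after IRF1 silencing, where 18.5% of all genes fell and 5.76% rose. The largest differences were in GDF15 (a stress-induced cytokine, -1.19 ± 0.15), VEGFA (-1.05 ± 0.15) and ATF5 (-0.996 ± 0.111). Of the 13 eIF2 genes 2 fell and 1 rose: EIF2AK2 at -1.31 ± 0.14, EIF2S1 (the eIF2 alpha subunit) at -0.52 ± 0.15 and EIF2AK3 (PERK) at 0.28 ± 0.11. Of 20 translocon and signal peptidase genes 1 rose, SRPRB at 0.64. Of 27 other ER folding and ERAD genes 3 rose and 2 fell, with HSPA13 at -0.60, DNAJC10 at 0.46 and ERO1A at -0.45. CREB3 (0.40) and EIF2AK3 were the 2 of 8 sensors and related factors that rose.

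**Figure D4:**
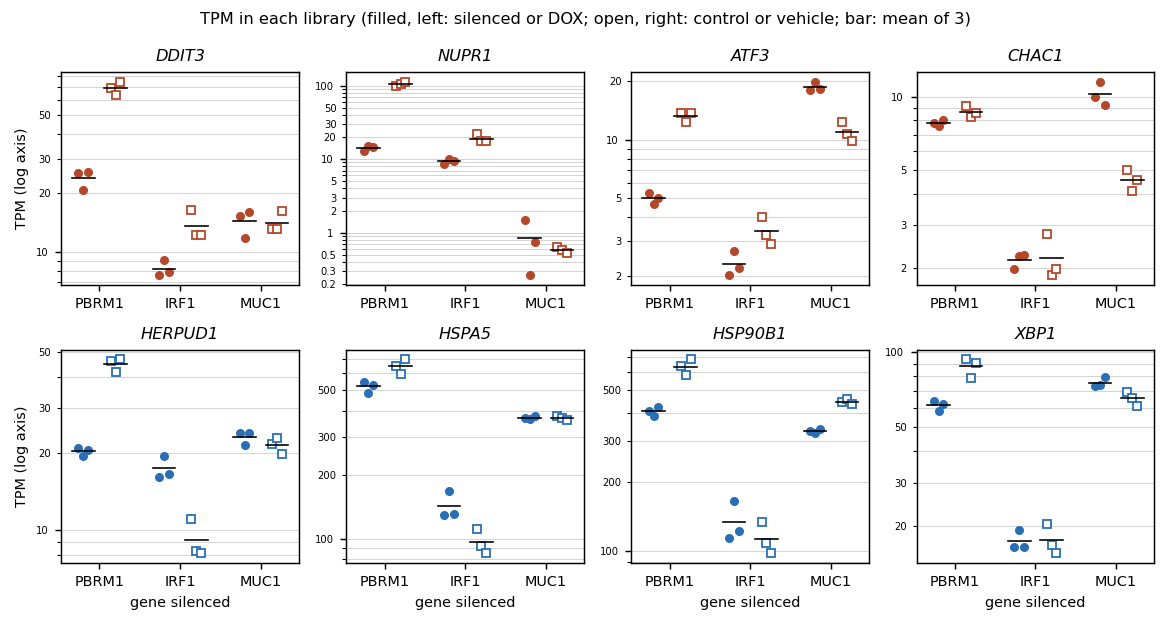
TPM on a log axis in each library for 4 ATF4-arm genes (top row, red) and 4 chaperone-arm genes (bottom row, blue), by gene silenced on the horizontal axis; filled circles at left of each pair are silenced or DOX libraries, open squares at right are control or vehicle libraries, and bars are means of 3. HERPUD1 lies below its controls with PBRM1 silenced and above them with IRF1 silenced, and CHAC1 lies above vehicle with MUC1 silenced.

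In MDA-MB-436/tet-MUC1shRNA cells, DOX raised stress regulators of the ATF4 arm and lowered several abundant chaperones. With DOX 7 of the 13 tested ATF4-arm genes rose, 2 fell and 4 did not pass, and 8 of the 20 chaperone-arm genes fell, 3 rose and 9 did not pass (limma, 13229 genes). Over all genes 27.0% rose and 23.4% fell. The median difference was 0.14 in the ATF4 arm, -0.028 in the chaperone arm and 0.015 over all genes, and 21 of 33 tested members did not overlap between the groups, against 59.2% of all genes. Over both arms together 10 of 33 tested members rose and 10 fell, which is near those shares. Removal of short RNAs left 6 genes higher and 2 lower in the ATF4 arm and 3 higher and 8 lower in the chaperone arm. Of all genes 26.3% rose and 25.1% fell under that scaling.

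CHAC1 had the largest difference, with 9.98, 11.5 and 9.20 TPM in DOX-treated cells, against 5.03, 4.11 and 4.56 TPM with vehicle, a difference of 1.01 ± 0.10 (adjusted p = 6.15e-05). ATF3 had 18.0, 19.9 and 18.3 TPM with DOX, against 12.4, 10.7 and 9.85 TPM with vehicle, a difference of 0.73 ± 0.08 (adjusted p = 0.000132). TRIB3 had 30.9, 32.4 and 31.8 TPM with DOX, against 20.0, 20.6 and 19.3 TPM with vehicle, a difference of 0.64 ± 0.05 (adjusted p = 1.37e-05). Each DOX library was above each vehicle library for all 3 genes. SESN2 had 28.2, 28.4 and 29.4 TPM with DOX, against 17.4, 19.7 and 20.0 TPM with vehicle, and rose by 0.57 ± 0.06.

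ATF4 and DDIT3 did not follow. ATF4 had 103, 95.8 and 88.0 TPM with DOX and 108, 94.7 and 94.4 TPM with vehicle (-0.052 ± 0.069, adjusted p = 0.563). DDIT3 had 15.3, 11.8 and 16.0 TPM with DOX and 13.0, 13.1 and 16.2 TPM with vehicle (0.019 ± 0.120, adjusted p = 0.909). Both overlapped between the groups. PPP1R15A had 62.0, 61.9 and 62.0 TPM with DOX, against 78.9, 74.6 and 69.5 TPM with vehicle, and fell by 0.26 (adjusted p = 0.00244). VLDLR had 10.0, 11.7 and 10.3 TPM with DOX, against 16.4, 14.8 and 14.4 TPM with vehicle, a difference of -0.47 ± 0.08 (adjusted p = 0.00109).

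Of the serine enzymes PHGDH (252, 256 and 248 TPM with DOX, against 210, 206 and 205 TPM with vehicle) rose by 0.28 and PSPH by 0.27, while PSAT1 differed by 0.042 and did not pass. CEBPB differed by 0.14 (adjusted p = 0.0419), a call that all 3 other scalings took away. STC2 differed by 0.11 without passing. NUPR1 was under the filter at 0.266 to 1.49 TPM, and FGF21 was listed at 0 in all 6 libraries.

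In the chaperone arm HSP90B1 had 333, 326 and 338 TPM with DOX, against 447, 458 and 434 TPM with vehicle, a difference of -0.42 ± 0.03 (adjusted p = 1.46e-05). SEL1L had 34.9, 33.3 and 34.1 TPM with DOX, against 45.9, 46.7 and 42.3 TPM with vehicle, a difference of -0.39 ± 0.05 (adjusted p = 0.000262). CALR had 1191, 1251 and 1244 TPM with DOX, against 1455, 1439 and 1434 TPM with vehicle, and fell by 0.23. For these 3 genes the groups did not overlap. ERN1 fell by 0.35, PDIA4 by 0.25, MANF by 0.17, HYOU1 by 0.15 and PDIA3 by 0.10 on the log2 scale, PDIA3 with its copy PDIA3P1 at 49.2 ± 2.1 TPM with DOX and 48.0 ± 2.1 TPM with vehicle. The PDIA3 call was lost with no trend, with the replicate block and in 4 of the 6 fits that left out a library. The ERN1 call was lost without DOX 1.

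The genes that rose in this arm were ATF6, XBP1 and SDF2L1. ATF6 had 21.0, 21.5 and 21.3 TPM with DOX, against 16.9, 16.5 and 17.0 TPM with vehicle, a difference of 0.32 ± 0.05 (adjusted p = 0.000777). XBP1 had 73.0, 74.2 and 79.3 TPM with DOX, against 69.5, 65.5 and 61.1 TPM with vehicle, a difference of 0.21 ± 0.06 (adjusted p = 0.0126). SDF2L1 differed by 0.30 ± 0.11 (adjusted p = 0.0449), a call lost when DOX 1, DOX 2 or vehicle 3 was left out. HSPA5 had 368, 363 and 376 TPM with DOX and 379, 371 and 361 TPM with vehicle and did not pass (-0.0028 ± 0.0331, adjusted p = 0.953). HERPUD1, EDEM1, SYVN1, DNAJB9, DNAJB11, DNAJC3, PDIA6 and CRELD2 did not pass either, with differences between -0.062 and 0.10.

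Among further ATF4 targets and partners, 12 of 34 tested genes rose and 10 fell with DOX, where 27.0% of all genes rose and 23.4% fell. The largest differences were in WARS (-1.302 ± 0.048), DDIT4 (REDD1, an mTORC1 inhibitor, 0.93 ± 0.09) and ATF5 (-0.90 ± 0.10). Of the 13 eIF2 genes 7 rose and 0 fell (1 was lower at an unadjusted p under 0.05), led by EIF2B5 (0.31), PPP1R15B (0.31) and EIF2AK1 (0.21). Translocon and signal peptidase genes split into 7 higher and 6 lower of 20 (SSR1 -0.74, SEC23B 0.49, SEC11C 0.46), other ER folding and ERAD genes into 8 higher and 8 lower of 27 (HSPA13 -0.79, DNAJC10 -0.64, FKBP14 0.60), and sensors and related factors into 3 higher and 3 lower of 10 (CREB3L1 -0.61, MBTPS2 -0.43, MAP3K5 0.37). Apart from the eIF2 genes, these lists were near the shares of all genes.

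The arms were then compared within each library, since a scaling factor shared by all genes of a library largely cancels in the difference between them. For each library the mean over tested genes of log2(TPM + 1), minus the control mean, was taken for the ATF4 arm minus the chaperone arm. This gap was -0.41, -0.40 and -0.41 in PBRM1shRNA libraries, against -0.0037, 0.033 and -0.029 in their controls, and -0.42, -0.40 and -0.41 in PBRM1shRNA libraries without FGF21 and ERN1. In IRF1shRNA libraries it was -0.69, -0.74 and -0.64, against 0.022, -0.047 and 0.025 in controls. With DOX it was 0.30, 0.32 and 0.25, against -0.0082, -0.011 and 0.019 with vehicle. No silenced or DOX library came near its control range in any experiment, and the sign was negative with PBRM1 or IRF1 silenced and positive with DOX. With short RNAs removed the gaps were -0.42, -0.40 and -0.43 in PBRM1shRNA, -0.72, -0.76 and -0.65 in IRF1shRNA and 0.31, 0.32 and 0.27 in DOX libraries. Since the members were chosen with results of these libraries known, the gap is given without a test.

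**Figure D5:**
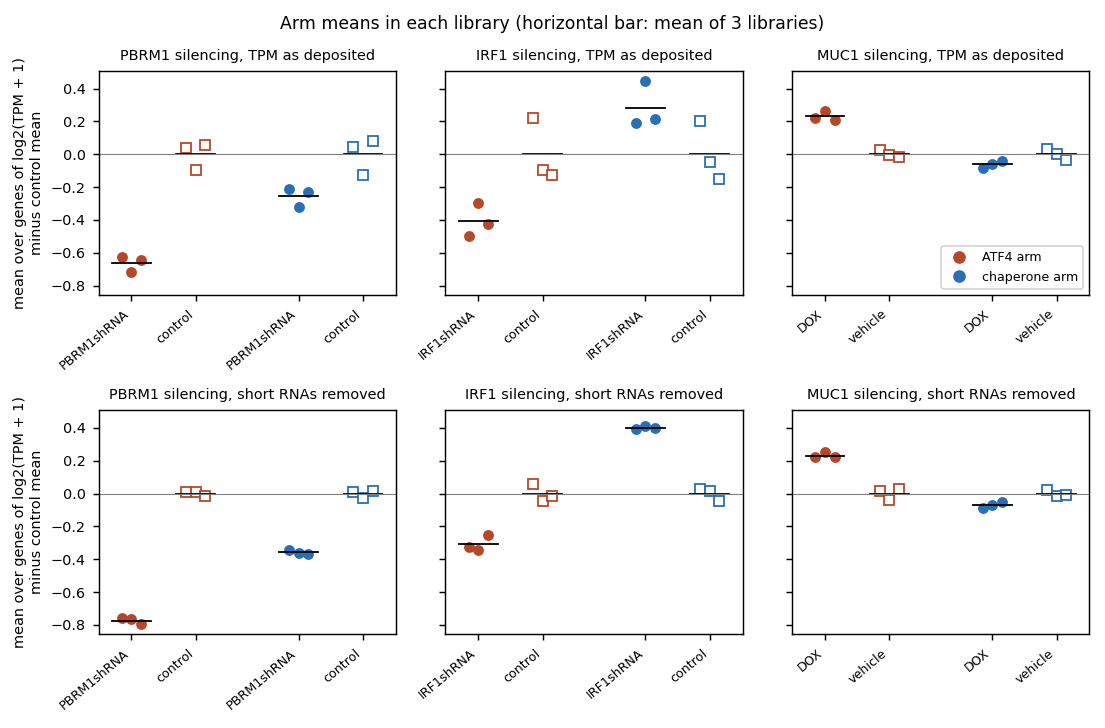
Mean over the tested genes of each arm of log2(TPM + 1) minus the control or vehicle mean, 1 point per library, filled circles for silenced or DOX libraries and open squares for control or vehicle libraries, red for the ATF4 arm and blue for the chaperone arm, with horizontal bars at the mean of 3; the top row uses TPM as deposited and the bottom row TPM after removal of short noncoding RNAs. The spread of the IRF1 experiment narrows in the bottom row, where its IRF1shRNA chaperone points lie at 0.39 to 0.41 and its ATF4-arm points at -0.34 to -0.25.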

How the data were processed

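RNA-seq libraries were prepared from triplicate cultures with a strand-specific poly(A) protocol. The submitters' processing notes name STAR, GRCh38 and DESeq2. The annotation was not given in the sources used here, nor was the TPM software. TPM values by gene symbol were deposited by the authors, 1 table per experiment, scaled to one fixed total per library, with tables of DESeq2 results. From the latter only the deposited mean normalized count, a signal scaled by the authors' size factors, was read as a guide to depth, and its sum over listed genes was 27111300 for PBRM1, 63114300 for IRF1 and 11858700 for MUC1. Their fold changes and p-values were not used, and library depth is unknown. The PBRM1 controls were matched to their group by column name, not to single samples. In the PBRM1 experiment 48 symbols carry a numeric suffix, which was removed (47 are listed without it in both other tables, ERN1 among them).

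Tests used limma 3.58.1 (R 4.3.3) with a mean-variance trend on log2(TPM + 1), for genes with at least 1 TPM in at least 3 of 6 libraries, each experiment alone, with Benjamini-Hochberg adjustment over all genes tested and a threshold of 0.05. The deposited values are TPM, so no count test was run. In both BT-549 fits limma took 1 spread common to genes of the same level, which makes the smallest p-values depend on that assumption. Differences are silenced or DOX minus control or vehicle. The fit was tested on simulated data first. Same-numbered libraries of the PBRM1 experiment deviated together (correlations 0.455, 0.309 and 0.290, the control numbers being those of the column names), so values with the number as a block are given where they change a call. Those of the other experiments did not. Besides ATF4, DDIT3, HSPA5, XBP1 and ATF6, members were named where they had the largest differences past the test, up to 5 per arm and comparison, and up to 3 for each further list. Other members were added to account for the whole list. The members and lists were chosen with earlier results of these data known. Alternatives were a pseudocount of 0.1, a mean of at least 5 TPM, no filter, removal of short noncoding RNAs, median-ratio and quantile scaling, no trend, the block, and leaving out each library. Protein sequences were not used here. A leukocyte marker of the list drawn up for this work is not reported here.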

Additional observations from a re-analysis of the deposited data

How the results depend on the processing

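Counts of members and arm medians stayed within 1.5 times or within the spread of libraries except as follows. After PBRM1 silencing the ATF4 arm had 4 genes higher with median-ratio scaling, against 2, and its median was -0.562 with a mean of at least 5 TPM, -0.562 with no filter and -0.567 with median-ratio scaling, against -0.68. The chaperone arm had 1 gene higher with a pseudocount of 0.1, with a mean of at least 5 TPM, with no filter and with no trend, 8 with median-ratio scaling, 5 with the replicate block and 1 to 3 when a library was left out, against 3. Of all genes 24.6%, 30.0%, 13.1%, 22.7%, 43.3% and 32.5% rose in those settings with every library, in that order, against 24.6% as deposited. The chaperone-arm median was -0.0728 with median-ratio scaling and -0.0817 under the 5 TPM mean filter, against -0.18. ATF6 turned to 0.026 with median-ratio scaling and was called at -0.165 with short RNAs removed. Removal of short RNAs shifted the median of all genes to -0.16, against -0.047 as deposited. After IRF1 silencing the ATF4 arm had 5 genes lower with no filter, 4 with the replicate block and 4 to 9 when a library was left out, against 9, and 1 higher with short RNAs removed, with median-ratio or quantile scaling and with short RNAs removed together with the block (a combination chosen after seeing the data), and 0 to 1 when a library was left out. The chaperone arm had 3 higher with no filter, 3 with the replicate block, 19 with short RNAs removed, 18 with median-ratio and 19 with quantile scaling, 18 with short RNAs removed together with the block, and 3 to 11 when a library was left out, against 6. Of all genes 4.14% rose with no filter and 2.07% with the block, against 5.76% as deposited. The share was 35.4% with short RNAs removed and 35.5% with the block added. It was 32.9% with median-ratio and 39.7% with quantile scaling, and 2.08% to 16.4% when a library was left out. Of all genes 9.31% fell with no filter and 10.1% with the block, against 18.5% as deposited. The chaperone-arm median ranged over 0.127 to 0.318 when a library was left out and was 0.34 with short RNAs removed, against 0.21, being lowest without control 3 or IRF1shRNA 2 (0.136). The cause of the losses with no filter was not tested. XBP1 turned to 0.102, 0.0515 and 0.1 with short RNAs removed, median-ratio and quantile scaling, and ranged over -0.0942 to 0.0903 when a library was left out. In the MUC1 experiment the ATF4-arm median was 0.191 with short RNAs removed, against 0.14, and, when a library was left out, ATF4 ranged over -0.106 to 0.012, DDIT3 over -0.06 to 0.145 and HSPA5 over -0.0212 to 0.0143. The replicate numbers of the IRF1 and MUC1 experiments mark only a number, and the block moved the calls over all genes to 927 lower and 189 higher, against 1693 and 526, after IRF1 silencing and to 2977 and 3491, against 3096 and 3566, with DOX. Over all 101 tested pairs of member and experiment and the 9 settings that kept all libraries, 758 values kept their direction and side of the threshold, 34 lost a call, 80 gained one and 27 turned sign. Of the gains, 58 were in the IRF1 experiment with short RNAs removed (with or without the block), median-ratio or quantile scaling. TPM tables give no depth, so no counting interval could be set, and values under 1 TPM are compressed by the pseudocount.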
